A study of Mus musculus with 2 samples.

Results

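The SMN complex is the assembly machine built around SMN, the protein that is reduced in spinal muscular atrophy. Its 9 genes were described in the neural tube of the mouse embryo. The 9 members were Smn1, Gemin2, Ddx20 (Gemin3), Gemin4, Gemin5, Gemin6, Gemin7, Gemin8 and Strap (unrip). They were chosen by name as the genes that encode the complex, not by their values, and all 9 were found among the 43346 annotated genes of the tables. The tissue came from embryos of strain B6NCrl, healthy per the labels, at 15.5 days of embryonic development (E15.5). Total RNA was sequenced in 2 libraries of 1 group: replicate 1 came from a pool of 78 embryos of both sexes, and replicate 2 came from a pool of 62 embryos of both sexes. No treatment, genotype or age was varied, so no condition could be compared, no test was made, and every SD below is the spread between these 2 pools.

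SMN, the product of Smn1, holds the complex together through its own oligomers, and the Gemins and Strap bind to it directly or through one another. In the cytoplasm the complex places a ring of Sm proteins on the small nuclear RNAs of the spliceosome, the U snRNAs, which makes them snRNPs. Humans carry SMN1 and a nearly identical copy, SMN2, from which most transcripts lack exon 7. Loss of SMN1 leaves SMN2 as the source of SMN and causes spinal muscular atrophy, a disease of the motor neurons of the spinal cord. The mouse has Smn1 alone, and its complete loss is lethal to the early embryo.

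Depth was similar, with 34678043 expected counts on annotated genes in replicate 1 and 41355355 in replicate 2. Neuron markers were abundant in both pools, with a summed level of 2724.58 TPM (a level corrected for transcript length and for depth) in replicate 1 and 3263.71 TPM in replicate 2. All 6 neural progenitor markers and 6 of 7 motor neuron markers reached 1 TPM in both, the exception being Mnx1 at 1.05 and 0.77 TPM. Replicate 1 also held markers of other tissues: thymocyte markers summed to 179.15 TPM in replicate 1 and 0.39 TPM in replicate 2, thymic epithelium markers to 254.79 and 10.8 TPM, and epithelium markers to 651.41 and 7.72 TPM. Its 6 cycling cell markers summed to 458.34 TPM, against 215.38 TPM in replicate 2. Replicate 2 held more skeletal muscle RNA, at 262.04 TPM against 144.34 TPM in replicate 1. Because the pools differ in content, each result is given for each library, so that replicate 2 can be read alone. In RNA from whole tissue, fewer cells of a type and less RNA per cell cannot be told apart.

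All 9 members were detected, which here means 1 TPM or more in both libraries. Among all annotated genes 35.8% were detected, and among protein-coding genes 63.4%. The members spanned a 19.3-fold range of mean level, with Strap and Gemin7 at the top and Gemin8 at the bottom. The median member stood at 19.62 TPM in replicate 1 and 15.39 TPM in replicate 2, close to the median of all detected genes, which was 17.0 TPM and 15.98 TPM. Detected protein-coding genes had medians of 19.985 and 19.045 TPM. Strap lay at the 91.4 percentile of detected genes and Gemin7 at the 91.0, while Gemin5 lay at the 42.7 and Gemin8 at the 28.2. Strap, Gemin7, Smn1 and Ddx20, 4 of the 9, were above the median of detected genes in both libraries. Ddx20, at 19.78 and 17.93 TPM, was below the median of detected protein-coding genes in both, and Strap, Gemin7 and Smn1 were above it. Strap and Gemin7 together made up 65.5% of the summed level of the members in replicate 1 and 69.1% in replicate 2.

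**Figure D1:**
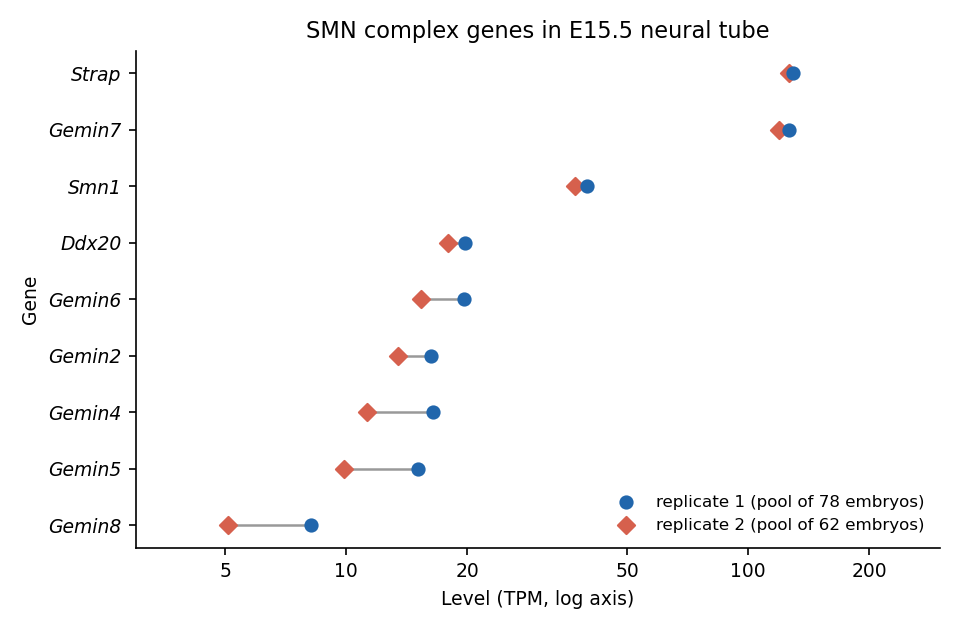
Level of each SMN complex gene in TPM (log axis) in replicate 1 (blue circles) and replicate 2 (red diamonds), with a grey line joining the 2 libraries of a gene. Strap and Gemin7 lie above 119 TPM, Smn1 lies near 38.4 TPM, 5 genes lie together between 9.88 and 19.78 TPM, and Gemin8 lies lowest.

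Smn1 lies on chromosome 13 (chr13:100124852-100137690, plus strand, build mm10, which is GRCm38). Its level was 39.66 TPM in replicate 1 from 851 expected counts and 37.09 TPM in replicate 2 from 905, a mean of 38.4 ± 1.82 TPM (SD, n = 2). The libraries lay close together, and Smn1 ranked next after Strap and Gemin7 among the members and at the 71.2 percentile of detected genes. Both libraries stood clear of Gemin7 above and of Ddx20 below.

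Exon 7 is the exon whose loss separates most human SMN2 transcripts from SMN1 transcripts, and mouse Smn1 has the same exon near its 3′ end. It spans 51 bases at chr13:100135689-100135739 on the plus strand of GRCm38, and the reading frame of Smn1-201 ends within it. The sequence is shown because the human disease turns on this exon, with the stop codon, which starts at base 46, in capitals.
Smn1 exon 7: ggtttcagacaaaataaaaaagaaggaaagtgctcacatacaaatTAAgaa

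Of the 9 Smn1 transcripts in the tables, 4 hold exon 7, 5 end before it, and 0 span it and skip it. The tables could therefore not report a transcript that spans exon 7 and skips it, and their shares say nothing about its skipping. Transcripts that hold exon 7 made up 77.78% of Smn1 TPM in replicate 1 and 74.21% in replicate 2. Nearly all of that was Smn1-201, the full-length protein-coding transcript of 9 exons, at 77.41% and 72.22% of Smn1 TPM. The 5 entries annotated as retained introns made up 22.08% of TPM in replicate 1 and 15.9% in replicate 2. They are short, so the same entries held only 9.94% and 7.0% of the Smn1 expected counts.

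The libraries differed in 1 protein-coding Smn1 transcript. Smn1-207 joins exon 1 to exon 3 and leaves out exons 2a and 2b, 192 bases in all, which keeps the reading frame. The entry is a fragment of 4 exons and 485 bases, all annotated as coding, against 864 coding bases of 1222 in Smn1-201. It had 0 expected counts in replicate 1 and 45.01 in replicate 2, which gave 0 and 4.4 TPM. In replicate 2 it took 11.87% of Smn1 TPM but only 4.97% of the Smn1 expected counts. Both counts of Smn1-207 are divisions made by the model among transcripts that share most of their bases. The posterior mean estimate, another value in the deposited tables, gave it 3.50% of Smn1 TPM in replicate 1 and 12.92% in replicate 2. The 2 junctions are printed because these letters are where the transcripts part, with 20 bases on each side and the bases after the junction in capitals (plus strand, GENCODE M21 on GRCm38).
Smn1-201, exon 1 to exon 2a: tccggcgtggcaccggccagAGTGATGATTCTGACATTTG
Smn1-207, exon 1 to exon 3: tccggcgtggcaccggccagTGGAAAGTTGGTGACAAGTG

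Gemin2 is the partner that binds SMN most directly, and in the human complex it holds the partly formed Sm ring. The gene lies at chr12:59013393-59028470 on the plus strand. Gemin2 stood at 16.3 TPM in replicate 1 (492.22 expected counts) and 13.46 TPM in replicate 2 (497.54), a mean of 14.9 ± 2.01 TPM (SD, n = 2). Its level was lower than that of Smn1 in both libraries, with a ratio of Gemin2 to Smn1 of 0.411 and 0.363 (mean 0.387 ± 0.034, SD, n = 2). Gemin2-201 made up 78.72% and 79.17% of Gemin2 TPM, and the remainder, 21.28% and 20.83%, fell on 2 retained-intron entries. By expected counts these entries held 13.9% in replicate 1 and 15.6% in replicate 2.

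Gemin5 is the subunit that recognises the snRNA, through the binding site for the Sm ring and the cap. It is the longest of the 9 mRNAs, and it lies at chr11:58120002-58168539 on the minus strand. Gemin5 had 15.08 TPM in replicate 1 and 9.88 TPM in replicate 2, from 1348 and 1298 expected counts (mean 12.5 ± 3.68 TPM, SD, n = 2). The ratio of Gemin5 to Smn1 was 0.38 in replicate 1 and 0.266 in replicate 2. Gemin5 was lower than Smn1 per length in both pools, although more reads fell on it than on Smn1.

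Gemin5 was the member whose transcripts differed most between the pools. The leading transcript, Gemin5-205, made up 41.5% of its TPM in replicate 1 and 59.12% in replicate 2. A fragment of 4 exons and 601 bases, Gemin5-204, took 30.74% of the TPM in replicate 1 and 13.61% in replicate 2, from only 51.62 and 17.88 expected counts. Left out, it leaves Gemin5 at 10.45 TPM in replicate 1 and 8.54 TPM in replicate 2, a 1.22-fold difference in place of 1.53-fold. The second full-length transcript, Gemin5-202, held 27.76% and 26.39% of the TPM.

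Gemin5-205 and Gemin5-202 both have 28 exons and differ in 3 of them. Exons 19 and 27 are 3 bases longer in Gemin5-205, and the last exon is 1783 bases long in Gemin5-205 and 495 bases long in Gemin5-202. The junctions into exons 19 and 27 are given below because a shift of 1 codon's length at the start of an exon is all that separates the coding parts of the pair (minus strand, GENCODE M21 on GRCm38). Capitals mark the 3 bases that Gemin5-202 lacks.
Gemin5-205, into exon 19: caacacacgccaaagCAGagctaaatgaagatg
Gemin5-202, into exon 19: caacacacgccaaagagctaaatgaagatg
Gemin5-205, into exon 27: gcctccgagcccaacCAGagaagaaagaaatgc
Gemin5-202, into exon 27: gcctccgagcccaacagaagaaagaaatgc

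Ddx20 encodes Gemin3, the DEAD-box RNA helicase of the complex, and lies at chr3:105678270-105687574 on the minus strand. Its level was 19.78 TPM in replicate 1 and 17.93 TPM in replicate 2, from 1220 and 1322 expected counts (mean 18.9 ± 1.31 TPM, SD, n = 2). Ddx20 lay below Smn1 in both pools. It was higher than Gemin6, the next in the order, within each library, but the values of the 2 genes overlapped across libraries. Ddx20-201 made up 96.02% and 96.53% of its TPM.

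Gemin4, at chr11:76210571-76217664 on the minus strand, enters the complex by binding Gemin3. Gemin4 had 16.47 TPM in replicate 1 and 11.26 TPM in replicate 2, from 1061.34 and 854.96 expected counts (mean 13.9 ± 3.68 TPM, SD, n = 2). Its ratio to Ddx20 was 0.833 in replicate 1 and 0.628 in replicate 2, so it was the lower of the pair in both. A transcript of 234 bases, Gemin4-202, took 16.22% and 17.38% of Gemin4 TPM from 8 and 7 expected counts. The full-length Gemin4-201 held over 99% of the counts and stood at 13.8 and 9.31 TPM. Gemin4 shares its locus with other genes: the span of Glod4 covers the whole 7094 bases of it on the same strand, and that of Fam57a covers 4257 bases on the opposite strand. These are spans of whole genes, introns included, and the exon bases shared were not counted. Fam57a was also higher in replicate 1, at 29.63 TPM against 20.0 TPM in replicate 2, and Glod4 had 101.48 and 91.89 TPM. The sources used here do not give whether the authors' counting used strand, so reads of Gemin4 and of the antisense Fam57a may not have been told apart. No use of strand could separate reads of Gemin4 from those of Glod4 where the 2 share bases. Expected counts of Fam57a, 1313.37 and 1030.04, were not whole in either library, like those of Gemin4. Glod4 had 2991.29 in replicate 1 and a whole 3230 in replicate 2. How reads were divided among these genes was not tested, so the Gemin4 level is uncertain. The other overlaps were with genes under 1 TPM, Dbil5 for Gemin4, Gm12246 for Gemin5 and Zfp296 for Gemin7, and 6 members overlapped no other gene.

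Gemin6 and Gemin7 form a pair with a fold like that of the Sm proteins, and Gemin8 joins the pair to SMN. Gemin7, at chr7:19564946-19577595 on the minus strand, had 126.38 TPM in replicate 1 and 119.1 TPM in replicate 2 (1910 and 2141 expected counts), a mean of 122.74 ± 5.15 TPM (SD, n = 2). Gemin6, at chr17:80224441-80228497 on the plus strand, had 19.62 TPM in replicate 1 and 15.39 TPM in replicate 2 (446.98 and 414 expected counts), a mean of 17.5 ± 2.99 TPM (SD, n = 2). The 2 binding partners were thus far apart in mRNA level, with a ratio of Gemin6 to Gemin7 of 0.155 in replicate 1 and 0.129 in replicate 2. Gemin8, at chrX:166170454-166190512 on the plus strand, had 8.18 TPM in replicate 1 and 5.08 TPM in replicate 2 (277.85 and 200 expected counts), a mean of 6.63 ± 2.19 TPM (SD, n = 2). It was the lowest member in both pools, and its higher library lay below the lower library of Gemin5. The ratio of Gemin7 to Gemin8 was 15.4 in replicate 1 and 23.4 in replicate 2, a mean of 19.4 ± 5.65 (SD, n = 2).

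Gemin7-201 made up 92.37% and 92.49% of Gemin7 TPM, and Gemin6-201 made up 98.29% and 95.94% of Gemin6 TPM. Gemin8 was more divided. Gemin8-201 held 68% of Gemin8 TPM in replicate 1 and 63.04% in replicate 2, and Gemin8-203 held 23.33% and 23.57%, from 39.81 and 29.8 expected counts. Gemin8-203 lacks 93 coding bases that directly follow the start codon in Gemin8-201, so it encodes 207 codons where Gemin8-201 encodes 238. The missing stretch, chrX:166180353-166180445 on the plus strand of GRCm38, is printed because it is the whole coding difference between the 2 leading transcripts, and 31 codons are absent without a change of frame.
Gemin8 bases in Gemin8-201 and not in Gemin8-203: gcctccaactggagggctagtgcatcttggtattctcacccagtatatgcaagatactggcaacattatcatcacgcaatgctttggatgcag

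Strap, or unrip, is a WD-repeat protein that joins the complex through Gemin7 in the cytoplasm, and it is known for other roles outside the complex as well. The gene lies at chr6:137735078-137751932 on the plus strand. Strap had 129.74 TPM in replicate 1 and 126.84 TPM in replicate 2, from 7306 and 8509 expected counts, a mean of 128.29 ± 2.05 TPM (SD, n = 2). Strap and Gemin7, which bind each other, were nearly level, with a ratio of Strap to Gemin7 of 1.03 in replicate 1 and 1.06 in replicate 2. The lower Strap library lay just above the higher Gemin7 library, by the margin of 126.84 to 126.38 TPM. Strap-201 made up 99.45% and 99.23% of its TPM.

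In the order of mean level, 4 of the 8 neighbouring pairs did not overlap between libraries: Strap over Gemin7, Gemin7 over Smn1, Smn1 over Ddx20, and Gemin5 over Gemin8. The other 4 neighbouring pairs, from Ddx20 down to Gemin5, overlapped. Across non-neighbours in that stretch, the lower library of Ddx20, at 17.93 TPM, lay above both libraries of Gemin2, Gemin4 and Gemin5, and the lower library of Gemin6, at 15.39 TPM, lay above both of Gemin5. Within each library, however, Gemin5 lay below both Gemin2 and Gemin4. Gemin2 and Gemin4 changed places between the libraries, so their order was not resolved. The level of the leading transcript alone gave the same order of all 9 genes. Each of the 9 genes had the same leading transcript in both libraries, and each leading transcript was protein-coding. In 4 genes, Strap, Gemin6, Ddx20 and Gemin7, that transcript held 90% or more of the gene's TPM in both libraries. Of the 38 member transcripts in the tables, 5 had 0 counts in both libraries.

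**Figure D2:**
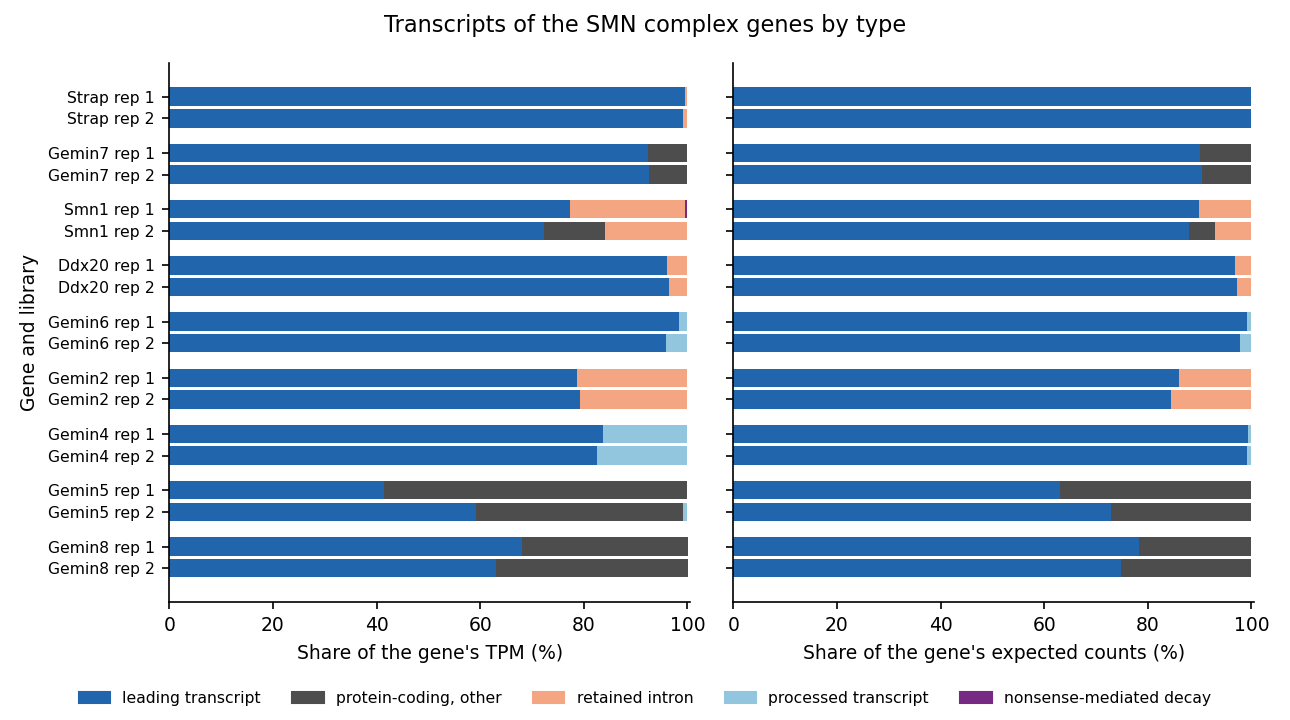
Share of each member's TPM (left) and of its expected counts (right), in percent, that fell on its leading transcript and on its other transcripts by annotated type, 1 bar per library. Smn1 and Gemin2 carry retained-intron entries (22.08% and 21.28% of TPM in replicate 1), Gemin5 and Gemin8 are divided among protein-coding transcripts, and the short Gemin4 transcript almost vanishes by counts.

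Every member was higher in replicate 1 than in replicate 2 by TPM, whereas 51.2% of the 11969 genes with a mean of at least 5 TPM and 50 summed counts were. The log2 ratio of (TPM + 1) in replicate 1 over replicate 2 ran between 0.03 for Strap and 0.59 for Gemin8, with a median of 0.26 for the members and 0.0071 for all those genes. No member reached a 2-fold difference on this scale, against 3.48% of the genes. At a 1.5-fold difference on the same scale 1 member, Gemin8, was higher in replicate 1, against 7.01% of the genes. Gemin5, at 1.53-fold by TPM itself, fell short of it only through the added 1 TPM. The members of lowest level showed the largest ratios, 0.51 for Gemin4 and 0.56 for Gemin5 next to Gemin8, while Smn1 stood at 0.09. For Smn1 the direction depended on the transcripts taken. Its protein-coding transcripts summed to 30.7 TPM in replicate 1 and 31.19 TPM in replicate 2, and its retained-intron entries to 8.76 and 5.9 TPM. Smn1-201 alone had 30.7 and 26.79 TPM, and the rest of the protein-coding sum in replicate 2 was the fragment Smn1-207, at 4.4 TPM. Without the fragment Gemin5-204 the ratio of Gemin5 was 0.26, below the 0.33 of Gemin6. The level of Gemin4 is uncertain because of the genes at its locus, so no trend of ratio with level can be read from these values.

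Counting error was set beside these differences as the 95% exact interval of the log2 ratio of CPM (counts scaled to the library total). It lay above 0 for 7 members and held 0 for 2, Strap and Gemin7. The share of all genes whose interval lay above 0 was not computed, so the 7 cannot be set against it. For Gemin8 the ratio was 0.73 (0.46 to 1.00) and for Smn1 it was 0.17 (0.03 to 0.30). The lower bounds of Ddx20 and Smn1 were only 0.025 and 0.029. Scaling with trimmed means lowered their ratios from 0.138 and 0.165 to 0.107 and 0.135, so their place among the 7 depends on the scaling. The interval covers counting error only and not the spread between pools, for which 2 libraries give no more than the SDs above. All 9 members were higher in replicate 1 by CPM too, and by CPM scaled with trimmed means. With median-ratio size factors 8 were, since Strap then had a log2 ratio of -0.0079. The 6 cycling cell markers were higher in replicate 1 as well, 5 of them by 2-fold or more, and the 6 neuron markers were all lower there. All 5 red cell markers were higher in replicate 1, with a summed level of 14864 TPM against 12931.3 TPM in replicate 2 and a median log2 ratio of 0.21. The part of these markers, and of the thymus and epithelium markers, in the difference of the members was not tested.

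**Figure D3:**
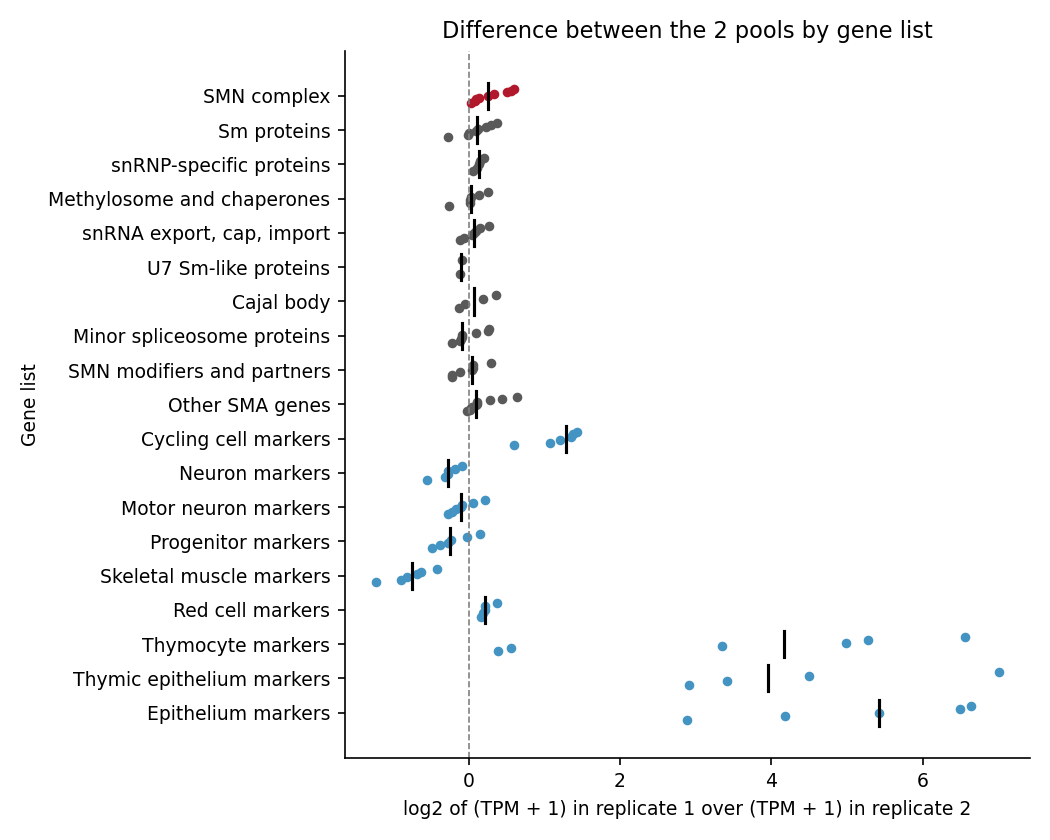
Log2 ratio of (TPM + 1) in replicate 1 over replicate 2 for the members (red), for genes of the same pathway (grey) and for cell type markers (blue), 1 point per gene, with a black bar at the median of each list and a dashed line at the median of 11969 genes. All 9 members lie right of 0 and within 0.59, while thymocyte, thymic epithelium and epithelium markers reach far beyond them.

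Genes that work with the complex were described from 9 lists of 57 genes. All 57 were detected, 0 differed 2-fold between the pools, and 39 were higher in replicate 1 and 18 in replicate 2. Over the 11969 genes with at least 5 TPM and 50 counts, 3.48% differed 2-fold and 51.2% were higher in replicate 1. The mRNAs of the Sm proteins, the cargo of the complex, had a higher median than those of the complex. The median member stood at 17.5 ± 2.99 TPM and the median of the 8 Sm proteins at 263 ± 24.6 TPM (SD, n = 2). Snrpn led the Sm proteins with 807.99 TPM in replicate 1 and 979.06 TPM in replicate 2, followed by Snrpe at 361.77 and 337.72 TPM and Snrpg at 326.4 and 300.18 TPM. Snrpf, at 59.18 and 47.92 TPM, and Snrpd3, at 49.02 and 49.15 TPM, were the lowest, above Smn1 but below Strap and Gemin7. SmN, the product of Snrpn, takes the place of SmB, the product of Snrpb, in the ring of neurons. Snrpb had 301.02 TPM in replicate 1 and 231.78 TPM in replicate 2, and the ratio of Snrpn to Snrpb was 2.68 and 4.22. The coding sequences of this pair are similar, so the model's division of shared reads between them is uncertain.

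Before the Sm proteins reach the complex they are held by the chaperone pICln (Clns1a) and methylated on arginines by Prmt5 with Wdr77, the methylosome. Clns1a had 151.95 TPM in replicate 1 and 138.4 TPM in replicate 2, Coprs, a cofactor of Prmt5, 107.78 and 128.59 TPM, and Wdr77 90.31 and 75.6 TPM. The lowest of these 6 genes were Prmt7, another arginine methyltransferase, at 54.52 and 53.57 TPM, and Riok1, an adaptor of Prmt5, at 22.02 and 21.51 TPM. Only Riok1 lay below Smn1. The proteins that mark single snRNPs were also abundant, with Snrpc of the U1 snRNP at 158.81 and 147.15 TPM, Snrpa at 155.13 and 141.26 TPM and Snrnp70 at 119.59 and 107.94 TPM. In that list of 5, Snrpa1 of the U2 snRNP had 109.76 and 95.35 TPM and Snrpb2 of the same particle, the lowest, 43.56 and 41.93 TPM.

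The snRNAs leave the nucleus through Phax and the cap-binding proteins and return through snurportin (Snupn) and importin beta (Kpnb1). Phax had 108.1 TPM in replicate 1 and 117.02 TPM in replicate 2, Ncbp2 85.09 and 76.18 TPM, and Ncbp1 57.17 and 54.1 TPM. The import factors were the lowest of the 7, Kpnb1 at 26.46 and 21.84 TPM and Snupn at 23.27 and 24.29 TPM. In the Cajal body, where snRNPs mature, fibrillarin (Fbl) had 69.63 and 53.93 TPM, Nolc1 40.96 and 35.61 TPM, coilin (Coil), the scaffold of the body, 21.44 and 23.48 TPM and Wrap53 15.01 and 15.53 TPM. The Sm-like proteins of the U7 snRNP, which cuts histone mRNA, had 39.91 and 42.41 TPM for Lsm10 and 18.09 and 19.69 TPM for Lsm11.

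**Figure D4:**
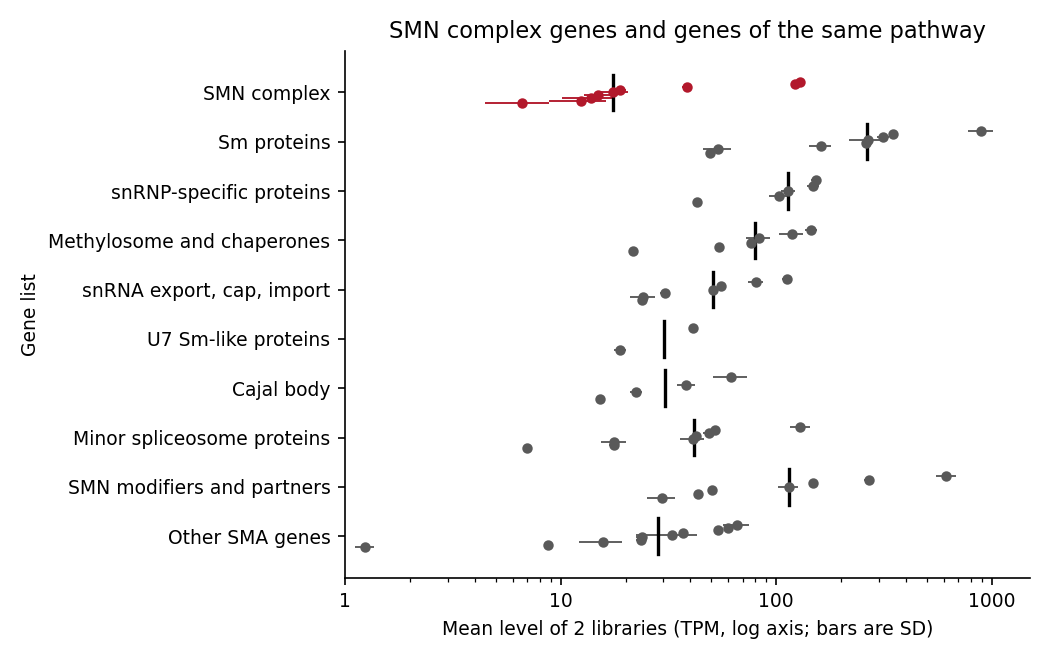
Mean level in TPM (log axis) of each gene in the SMN complex (red) and in 9 lists of genes of the same pathway or disease (grey), 1 point per gene with bars for the SD of 2 libraries and a black bar at the median. The complex has the lowest list median, 17.5 TPM, and the Sm proteins have the highest, 263 TPM.

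The minor spliceosome removes a rare class of introns, and its snRNPs are loaded by the same complex. Zcrb1 was the highest of its 8 proteins, at 119.67 TPM in replicate 1 and 139.33 TPM in replicate 2, with Zmat5 at 50.08 and 53.48 TPM and Zrsr2 at 46.78 and 50.61 TPM. Snrnp35, at 18.24 and 17.01 TPM, and Pdcd7, at 6.76 and 7.22 TPM, were the lowest. Pdcd7 was close to Gemin8 in level. Among the modifiers and partners of SMN, the actin regulator Pfn2 stood at 568.02 and 660.23 TPM, Uba1, which activates ubiquitin and is itself mutated in X-linked infantile spinal muscular atrophy, at 259.13 and 280.44 TPM, and the RNA-binding protein Hnrnpr at 150.8 and 145.26 TPM. Chp1, a calcineurin inhibitor, at 44.6 and 42.6 TPM, and Pls3, a protective modifier in humans, at 32.53 and 26.41 TPM, were the lowest of those 7.

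Other genes whose mutation causes forms of spinal muscular atrophy ranged widely in level, with some above Smn1. Exosc8 of the RNA exosome had 72.35 TPM in replicate 1 and 59.37 TPM in replicate 2, the dynein heavy chain Dync1h1 59.14 and 59.93 TPM, and the ceramidase Asah1 54.3 and 52.98 TPM. Ighmbp2, the helicase of the form with respiratory distress, had 8.83 and 8.70 TPM, and the ion channel Trpv4 had 1.33 and 1.15 TPM. Of these 10 genes, 9 were higher in replicate 1, some of them barely, such as Ighmbp2 at a log2 ratio of 0.019. Over the 11969 genes with at least 5 TPM and 50 counts, 51.2% were. Trpv4 lies below that minimum. The motor neuron markers ranged from Prph, at 148.35 and 165.74 TPM, down to Mnx1, at 1.05 and 0.77 TPM. Between them, Isl1 had 41.53 and 39.69 TPM, Lhx3 5.64 and 7.0 TPM, and Chat, which makes acetylcholine, 3.34 and 3.66 TPM. The tissue holds many cell types, so none of these levels belongs to motor neurons alone.

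The promoters of all 9 members were matched in the RefSeq table for GRCm38.p6, as 250 bases before and 50 bases after the start of transcription. CpG dinucleotides are depleted in most of the genome and kept in the CpG-rich promoters of many broadly used genes. The ratio of observed to expected CpG ran between 0.628 for Smn1 and 1.12 for Strap. It was 0.6 or more in all 9 members, against 35.8% of the 32851 promoter entries, whose median was 0.384. The letters CCGGAAG, a core bound by ETS factors, were found on either strand in 3 members, Smn1, Gemin8 and Strap, against 8.86% of entries. The palindrome TGACGTCA, the full cyclic-AMP response element, was found in 1, Gemin6, against 1.79% of entries. These shares cover all entries and not those of detected protein-coding genes alone, so they are not matched to the members.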

How the data were processed

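Total RNA longer than 200 nucleotides was sequenced from 2 pools of neural tube, with 10 ng of RNA per library and spike-in RNAs, per the labels. Per the notes deposited with each sample, 1 gene table and 1 transcript table per library were made from transcriptome alignments on mm10 with GENCODE M4. Which aligner and quantifier were run, with what strand setting, was not given in the sources used here. Each entry has an expected count per the file headers, an estimate by which the authors divided reads with several possible transcripts among them. TPM was deposited on a scale that covers all entries of a table, spike-ins included. FPKM, relative to effective length, was deposited too. Transcript shares are the deposited percent values of the gene's TPM, and posterior mean TPM was also deposited. Expected counts were whole, within 0.005, in both libraries for 5 members and not for 4.

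Of 69691 entries, 26248 named by a number alone were left out. Entries outside annotated genes, spike-ins among them, held 2.12% (replicate 1) and 2.28% (replicate 2) of all counts. Symbols, coordinates and transcript structures came from GENCODE M21 on GRCm38, the assembly mm10 names: 42462 of 43346 genes matched by identifier, and the length of each of the 38 member transcripts was the same as in the deposited tables. Sequences were copied from that release. Promoters came from RefSeq (GRCm38.p6), chromosome 18 left out.

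The 2 libraries are biological replicates of 1 group per the labels, so levels are given per library with mean and SD, with no test. The authors' TPM was used as deposited. Log2 ratios used a pseudocount of 1 TPM. Detection meant at least 1 TPM in each library. Neighbouring genes were called apart where the lower library of one lay above the higher library of the other. Intervals are exact Clopper-Pearson intervals (95%, scipy 1.17.1) of the split of a gene's counts between the libraries, scaled by the library totals, and cover counting error only. At this depth 3 counts correspond to 0.053 TPM for Strap and 0.199 TPM for Gemin7 in replicate 1. Alternatives used expected counts scaled by factors from edgeR 4.0.16 (TMM) and DESeq2 1.42.0 (size factors). The factors were estimated from expected counts rounded to whole numbers. The TMM scale was checked on simulated data, and both tools were used for scaling alone.

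The members and lists were chosen with earlier results of these data known. All members were named, and of every other list the 3 highest and the 2 lowest by mean TPM, both genes of each pair and any gene apart between the libraries. The markers and overlapping genes named, and the transcripts described in detail, were picked after their values were seen.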

Additional observations from a re-analysis of the deposited data

How the results depend on the processing

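All 9 members stayed detected at thresholds of 0.5 and 5 TPM, with FPKM, with posterior mean TPM, with TPM rescaled over annotated genes, and in either library alone. The order of levels by TPM rests on division by length: by CPM, 4 of the 9 genes kept their rank. By CPM the ratio was 0.564 for Gemin2 to Smn1, 0.214 for Gemin6 to Gemin7, 8.79 for Gemin7 to Gemin8, 3.90 for Strap to Gemin7 and 6.09 for Snrpn to Snrpb. That of Gemin5 to Smn1 turned round, to 1.51, since CPM is not divided by the length in which Gemin5 exceeds Smn1. In replicate 1 alone 7 of 9 genes kept their rank, with Gemin2 and Gemin4 changing places, and in replicate 2 alone 9 did. At a fold of 1.5 in place of 2 on the (TPM + 1) scale, 1 member, Gemin8, differed between the libraries. By TPM itself Gemin5 (1.53) lay past that fold as well, but not without the fragment Gemin5-204 (1.22). The leading transcript of each gene was the same by TPM, by posterior mean and by expected counts, although its share moved by more than the spread between libraries for several genes. With 1 library a pool no spread within a pool can be given, and the members of lowest count, Gemin8 and Gemin6, carry the widest counting intervals. With 1 group no pairing between conditions was possible, while ratios and ranks of genes were taken within each library.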

Other observations

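The snRNAs on which the complex acts had few counts, and the RNA kept for the libraries was longer than 200 nucleotides, per the labels. Of 1383 entries annotated as snRNA, 1382 are shorter than 200 bases and 100 had a count in either library. In all they held 158.83 expected counts in replicate 1 and 205.55 in replicate 2. Rnu2-10 had 4.92 and 6.84 expected counts, Rnu1a1 had 0.94 and 3.26, and Rnu7, Rnu6 and Rnu12 had 0 in both. These entries were picked with their values in view. The levels of the protein genes can thus not be set beside those of the snRNAs in these libraries.

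Among the 57 genes of the same pathway and disease, the largest log2 ratio of (TPM + 1) between replicate 1 and replicate 2 was 0.64, for Exosc3 of the RNA exosome, at 40.03 TPM in replicate 1 and 25.39 TPM in replicate 2. The ratio of Snrpn to Snrpb was lower in replicate 1, at 2.68, than in replicate 2, at 4.22, and the summed level of neuron markers was lower there too, at 2724.58 and 3263.71 TPM. The part of neuron content in this difference was not tested.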
